A study of Mus musculus with 9 samples.

Results

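Of the 21936 genes in the deposited expression table, 358 spanned more than 400 kb between their annotated start and end. A mean of at least 1 CPM (a gene's read count as a share of the library's counts, scaled to a common total) over the 9 libraries and a name not beginning with Zfp left 123 long genes. The other genes over 400 kb were 233 with a lower mean and 2 Zfp genes. The mean level that chose the 123 genes is itself a measured value and supports nothing here. The poly(A) RNA came from livers of wild-type (WT) mice in 3 groups of 3 libraries, taken 2 h after the animals had received NaCl, 25 mg/kg retrorsine or 50 mg/kg retrorsine into the peritoneal cavity. No other agent or allele is named, and the labels used here give no strain, sex or age. Retrorsine is a plant toxin of the pyrrolizidine alkaloid class, which liver enzymes convert into reactive pyrroles. Whether each library is a different mouse is not stated, so a p-value measures the spread between samples that may be technical repeats.

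RNA polymerase II has to traverse a whole gene, introns included, before the transcript is cleaved and polyadenylated at its end, with much of the splicing done on the way, so a long gene takes longer to yield a transcript than a short one. Genes of this size owe their length mainly to introns. Many encode adhesion molecules, receptors, signalling enzymes, giant cytoskeletal proteins and transcription regulators, and some lie at common fragile sites, regions of human chromosomes that tend to break when replication is disturbed.

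Just above the span limit stood Dst at 400.4 kb and Dock4 at 400.9 kb, and just below it Adk at 396.0 kb, Esr1 at 394.0 kb and Itpr2 at 393.9 kb. Just above the level limit stood Fhod3 at 1.01, Mecom at 1.04 and Gpc6 at 1.05 mean CPM, and just below it St6galnac3 at 0.947 and Pde10a at 0.927. Every one of the 123 genes passed the read filter and was tested. Of them, 106 had a mean of at least 1 CPM in each of the 3 groups, 16 had it with NaCl and fell short of it in at least 1 retrorsine group, and Mecom alone was under 1 CPM with NaCl.

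Total counts ranged from 15241261 to 18691736 per library. The 10 hepatocyte markers summed to between 119052 and 144162 CPM with NaCl and between 123581 and 160957 CPM after retrorsine, and none of them was called in either comparison with NaCl. No marker of sinusoidal endothelium, stellate cells, Kupffer cells or erythroid cells was called there either, but some of these sums varied between libraries. The erythroid sum was 47.7 to 121 CPM with NaCl, 125 to 205 CPM at 25 mg/kg and 65.7 to 301 CPM at 50 mg/kg. The stellate sum was 579 CPM in NaCl replicate 2 and at most 373 CPM elsewhere. The Kupffer sum was 287 to 381 CPM with NaCl, 361 to 547 CPM at 25 mg/kg and 219 to 591 CPM at 50 mg/kg. Some libraries stood apart in other markers too. The 8 detected pancreatic acinar markers summed to 174 to 4113 CPM with NaCl, 10.97 to 18.04 CPM at 25 mg/kg and 9.90 to 246 CPM at 50 mg/kg, highest in NaCl replicate 1 and, among retrorsine libraries, in 50 mg/kg replicate 2, and all 8 were called lower at 25 mg/kg. The 7 lymphocyte markers summed to 7.98 to 18.3 CPM with NaCl, 15.7 to 25.0 CPM at 25 mg/kg and 21.5 to 43.7 CPM at 50 mg/kg, where 2 of the 4 tested were called higher. The 6 cholangiocyte markers summed to 131 CPM in NaCl replicate 2 and to at most 60.9 CPM elsewhere, and 1 was called lower at 25 mg/kg. Pkhd1 of this list and Reln of the stellate list are themselves long genes of the set. The 4 neutrophil markers summed to 168 CPM in 50 mg/kg replicate 3 and to at most 20.98 CPM elsewhere. Counts of long genes are therefore given without each library and without pairs of these, and the part of these markers in the results was not tested. In bulk RNA, fewer cells of a type and less RNA per cell cannot be told apart.

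At 25 mg/kg, 61 of the 123 long genes were lower than with NaCl, 2 were higher and 60 were not called. A gene was called when its p from the quasi-likelihood test of edgeR, adjusted over all 12557 genes tested (Benjamini-Hochberg), was under 0.05. Of all genes tested, 7.56% were called lower and 5.9% higher, against 49.6% of the long genes called lower. The median long gene stood at 46.6% of its NaCl level, a median log2 fold change of -1.10, while the median over all genes tested was 0.01. The log2 fold change was below 0 for 109 of the 123. In 86 long genes every 25 mg/kg library was below every NaCl library, and in 5 every one was above (18.8% and 17.7% of all genes tested). Among the 106 genes that kept a mean of at least 1 CPM in every group, 54 were lower and 2 higher.

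The falls at 25 mg/kg were large. Of the 61 genes called lower, 57 had a log2 fold change below -1 and 18 below -2, and the range ran from -4.73 for B3galt1 to -0.70 for Dpyd. Without 25 mg/kg replicate 1, and likewise without 25 mg/kg replicate 3, 40 long genes were called lower. Without NaCl replicate 1 and 50 mg/kg replicate 2 together the count was 46, and without NaCl replicate 1 and 50 mg/kg replicate 3 together it was 49.

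At 50 mg/kg, 63 of the 123 long genes were lower than with NaCl, 2 were higher and 58 were not called. Of all genes tested, 8.01% were called lower and 7.09% higher, against 51.2% of the long genes called lower. The median long gene stood at 48.0% of its NaCl level, a median log2 fold change of -1.06, and the median over all genes tested was 0.00. In 79 long genes every 50 mg/kg library was below every NaCl library, and in 2 every one was above (18.5% and 16.6% of all genes tested). Among the 106 genes with a mean of at least 1 CPM in every group, 57 were lower and 2 higher. Without NaCl replicate 3 the lower count was 42. It was 34 without NaCl replicate 1 and 50 mg/kg replicate 2 together, and 43 without NaCl replicate 1 and 50 mg/kg replicate 3 together. Both doses were compared with the same 3 NaCl libraries, so their values stand side by side here and do not test each other.

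Summed over the 123 genes, the level was 3589, 2832 and 3078 CPM in the 3 NaCl libraries, 1539, 1801 and 1537 CPM at 25 mg/kg, and 1628, 1651 and 2104 CPM at 50 mg/kg. The lowest NaCl library thus lay above the highest retrorsine library. Such a sum weighs the most abundant genes most. The median log2 difference of the 123 genes from their NaCl mean was 0.12, -0.11 and -0.01 in the NaCl libraries. It was -1.17, -0.89 and -1.10 at 25 mg/kg, and -1.16, -1.10 and -1.03 at 50 mg/kg.

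Shorter genes of the same minimum level moved less, and the shortest moved the other way. CPM are shares of a library scaled to the bulk of its genes, and no measure of total RNA was used here. A rise of short genes therefore cannot be told apart from a general fall in RNA. Genes spanning under 5 kb had a median log2 fold change of 0.27 at 25 mg/kg and 0.34 at 50 mg/kg, with 2.31% and 1.07% called lower. The median was 0.00 and -0.02 for 20 to 50 kb, -0.63 and -0.70 for 100 to 200 kb, and -0.98 and -0.997 for 200 to 400 kb, where 45.4% and 47.1% were called lower. Genes over 400 kb, here with the Zfp genes, had 49.6% and 51.2% called lower.

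**Figure D1:**
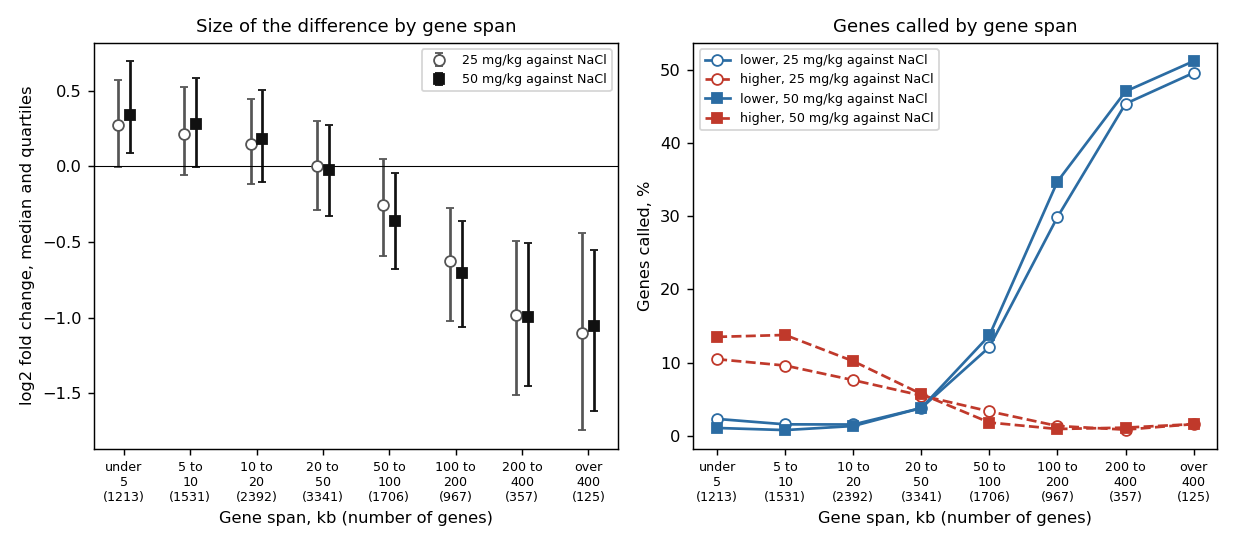
Genes with a mean of at least 1 CPM, grouped by annotated span in kb (x axis, number of genes in brackets): the left panel gives the median log2 fold change against NaCl with quartiles, the right panel the percentage called lower (blue) or higher (red), open circles for 25 mg/kg and filled squares for 50 mg/kg. The median goes from 0.27 and 0.34 under 5 kb to -1.10 and -1.06 over 400 kb.

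Within the long genes, a longer span did not go with a deeper fall. The 43 genes of 400 to 500 kb had a median log2 fold change of -1.23 at 25 mg/kg and -1.28 at 50 mg/kg, and 25 and 28 of them were called lower. The 14 genes over 1000 kb had medians of -0.68 and -0.65, and 5 and 3 of them were called lower. In 22 genes the principal coding transcript of the GENCODE M21 annotation spans at most 400 kb although the gene does not, and 8 and 10 of these were called lower. They included B3galt1 (principal transcript 15.8 kb), lower at 25 mg/kg, and Oxr1 (28.4 kb) and Celf2 (175 kb), lower at 50 mg/kg. Esrrg (217 kb), Nav2 (363 kb) and Sox5 (381 kb), lower at both doses, were also among them. Without these 22 genes, 53 of 101 were called lower at each dose. Across the 123 genes, the Spearman rank correlation between span and log2 fold change was 0.18 and 0.14, a description across genes that share the same libraries.

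The length of the spliced transcript showed a larger contrast. This length was taken from the same principal transcripts. The 61 genes with at least 6000 bases had medians of -1.44 and -1.34, and 39 and 37 were called lower. The 21 genes with under 3000 bases had medians of -0.56 and -0.54, and 4 and 5 were called lower. The rank correlation of this length with log2 fold change was -0.32 at 25 mg/kg and -0.27 at 50 mg/kg, again as a description. With the deposited exonic length of each gene instead, it was weaker, -0.145 and -0.165. Calls also went with level: 30 of the 39 genes with at least 20 CPM in NaCl were called lower at each dose. Under 5 CPM, 6 and 8 of the 38 genes were. The medians were -1.32 and -1.15 against -0.75 and -0.86. The same NaCl libraries are the reference of every fold change, so a deeper fall at a higher NaCl level is partly given by this grouping.

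**Figure D2:**
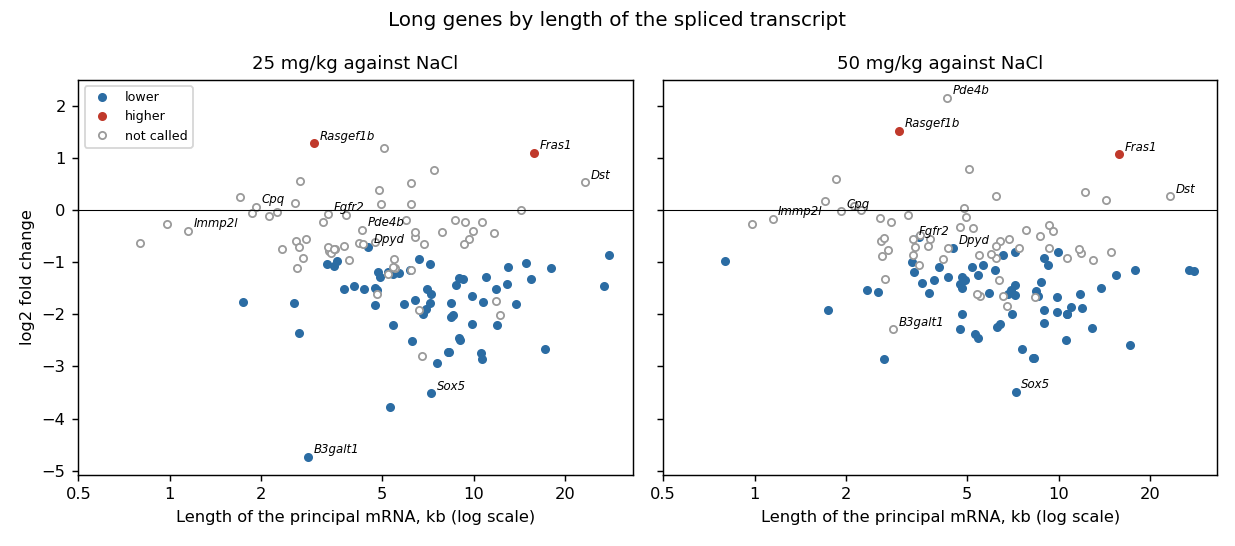
Log2 fold change of the 123 long genes against NaCl (y axis) by length of the principal spliced mRNA in kb (x axis, log scale), at 25 mg/kg (left) and 50 mg/kg (right). Blue points were called lower, red points higher and open grey points were not called. The 21 genes under 3000 bases lie nearer 0 (medians -0.56 and -0.54) than the 61 of at least 6000 bases (medians -1.44 and -1.34).

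The genes were grouped by role in lists that held 95 of the 123, and 28 others were given a role by name after their values were seen. Of all 123 long genes, 49.6% were called lower at 25 mg/kg and 51.2% at 50 mg/kg, with medians of -1.10 and -1.06. Each list is to be read beside these shares. Of 17 transcription factors and partners listed, 11 were lower at 25 mg/kg and 11 at 50 mg/kg, none was higher, and the medians were -1.74 and -1.84. Those lower at both doses were Sox5, Sox6, Zfhx3, Atxn1, Maml2, Maml3, Klf12, Foxp1, Nfib, Zbtb20 and Esrrg. Mecom, Rora, Tshz2, Smyd3, Foxp2 and Hivep3 were not called at either dose. For Tshz2, 67.5% of the exonic bases overlap exons of another gene, so its counts are uncertain.

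Sox5 (chr6:143828425-144781977, minus strand, GRCm38), an SRY-related factor that shapes transcription together with other Sox proteins, read 18.2, 16.4 and 18.7 CPM with NaCl, 0.512, 3.12 and 1.08 CPM at 25 mg/kg, and 0.911, 2.21 and 1.64 CPM at 50 mg/kg. Every retrorsine library was far below every NaCl library. Sox5 changed by log2 values of -3.52 (SE 0.56, edgeR adjusted p = 0.00506) and -3.49 (SE 0.56, adjusted p = 0.00524), which left 8.75% and 8.93% of the NaCl level.

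Its relative Sox6 (chr7:115470872-116038796, minus strand) read 17.5, 10.2 and 14.96 CPM with NaCl against 1.71, 2.93 and 1.79 CPM at 25 mg/kg and 1.22, 2.40 and 2.32 CPM at 50 mg/kg. The groups did not overlap, and Sox6 fell by 2.73 and 2.84 on the log2 scale (edgeR adjusted p = 0.00232 and 0.00247). Zfhx3 (chr8:107942644-108961630, plus strand), a large zinc finger and homeobox factor, read 17.8, 12.1 and 15.5 CPM with NaCl, 1.65, 2.93 and 2.54 CPM at 25 mg/kg and 2.67, 1.69 and 3.20 CPM at 50 mg/kg. It was lower in all 6 retrorsine libraries and fell by 2.67 and 2.58 on the log2 scale (edgeR adjusted p = 0.0016 and 0.00226).

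Maml3, a coactivator of Notch signalling, had means of 5.10 ± 1.75 CPM with NaCl, 0.776 ± 0.342 at 25 mg/kg and 0.714 ± 0.246 at 50 mg/kg (SD, n = 3 each), with log2 fold changes of -2.71 and -2.83. It is 1 of the 16 genes under 1 CPM in a retrorsine group, so its place in the set rests on its NaCl level. Atxn1, a chromatin-associated repressor known from an ataxia in human, had 28.2 ± 2.58, 4.19 ± 1.28 and 5.01 ± 2.38 CPM (SD, n = 3 each). Klf12, a Krüppel-like repressor, went from 33.1 ± 5.40 CPM to 9.48 ± 2.78 and 10.95 ± 1.45 CPM (SD, n = 3 each). All of these fell at both doses.

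Esrrg, an orphan nuclear receptor that drives genes of oxidative metabolism, had 7.60, 4.90 and 5.87 CPM with NaCl, 0.285, 0.199 and 0.812 CPM at 25 mg/kg and 0.121, 1.69 and 1.70 CPM at 50 mg/kg. The groups did not overlap, as the choice of named genes required. With a mean of 0.432 CPM at 25 mg/kg, Esrrg is also 1 of the 16 genes under 1 CPM in a retrorsine group. Its place in the set rests mainly on its NaCl level. The log2 fold changes of Esrrg were -3.77 (edgeR adjusted p = 0.0135) and -2.39 (adjusted p = 0.0499). The call at 50 mg/kg was at the threshold and was lost in 15 of 21 alternative analyses, among them leaving out any single library, and the call at 25 mg/kg was lost without 25 mg/kg replicate 1 (highest adjusted p 0.0623).

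Of 7 enzymes of second messenger signalling listed, 5 were lower at each dose and none was higher, with medians of -1.78 and -1.54. These were the protein kinase C isoforms Prkce and Prkca, the phospholipase Plcb1, the cAMP phosphodiesterase Pde4d and the calmodulin-dependent kinase Camk1d. Prkce (chr17:86167785-86657919, plus strand) read 16.0, 14.6 and 20.1 CPM with NaCl, 2.39, 4.52 and 2.06 CPM at 25 mg/kg and 3.46, 3.44 and 3.82 CPM at 50 mg/kg. No retrorsine library reached the NaCl range, and the log2 fold changes were -2.50 (SE 0.31, edgeR adjusted p = 0.00186) and -2.24 (SE 0.30, adjusted p = 0.00294). Prkca lost its call at 50 mg/kg without NaCl replicate 3 (highest adjusted p 0.0612), and Camk1d without NaCl replicate 1 and 50 mg/kg replicate 2 together (edgeR adjusted p = 0.0765).

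Pde4b (chr4:102087543-102607259, plus strand), which degrades cAMP in many immune and other cells, did not follow the others. It read 68.98, 10.4 and 13.0 CPM with NaCl, 26.5, 19.9 and 24.5 CPM at 25 mg/kg and 59.5, 46.8 and 304 CPM at 50 mg/kg. NaCl replicate 1 and 50 mg/kg replicate 3, the library with the highest neutrophil marker sum, stood far above the rest of their groups. The log2 fold changes of -0.38 (SE 0.82) and 2.15 (SE 0.84) missed the threshold (edgeR adjusted p = 0.809 and 0.113). Without NaCl replicate 1 and 50 mg/kg replicate 3 together, an alternative chosen after seeing the data, Pde4b was called higher, by 1.02 at 25 mg/kg (edgeR adjusted p = 0.0245) and by 2.19 at 50 mg/kg (adjusted p = 0.00437). At 50 mg/kg it was also called without NaCl replicate 1 alone (3.55, adjusted p = 0.0329) and without NaCl replicate 1 and 50 mg/kg replicate 2 together (3.96, adjusted p = 0.0223), and its change ranged from 0.79 to 3.96 over the 21 alternatives.

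All 4 receptor tyrosine phosphatases among the long genes fell at both doses. These membrane proteins remove phosphate from tyrosines at cell contacts. Ptprd (chr4:75941238-78211961, minus strand) read 129, 106 and 96.8 CPM with NaCl, 30.7, 42.5 and 32.1 CPM at 25 mg/kg and 30.5, 34.7 and 38.8 CPM at 50 mg/kg. The 3 NaCl libraries were far above the other 6. This gave log2 fold changes of -1.65 and -1.67 (SE 0.19 each, edgeR adjusted p = 0.00127 and 0.00174). Ptprk fell by 1.15 at both doses, Ptprg by 1.32 and 1.05, and Ptprm by 1.53 and 1.50 on the log2 scale. The Ptprg call at 50 mg/kg was lost without NaCl replicate 1 and 50 mg/kg replicate 2 together (edgeR adjusted p = 0.0677). The receptor kinase Fgfr2 had 42.5 ± 9.42, 40.1 ± 18.4 and 29.0 ± 6.67 CPM (SD, n = 3 each) and was not called. Its span of 2961 kb, the largest of all, belongs to this annotation alone, since the RefSeq gene covers 104 kb.

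Regulators of small GTPases, molecular switches of the cytoskeleton and of vesicle traffic, had 6 of 9 listed members lower at 25 mg/kg and 7 of 9 at 50 mg/kg, with medians of -1.51 and -1.28. Dock1 (chr7:134670654-135173639, plus strand), an exchange factor for Rac in phagocytosis and migration, read 28.3, 30.01 and 27.7 CPM with NaCl, 8.02, 6.71 and 6.88 CPM at 25 mg/kg and 6.93, 10.1 and 11.04 CPM at 50 mg/kg. The NaCl values were tightly grouped and well above the rest. Dock1 had log2 fold changes of -1.99 (SE 0.20, edgeR adjusted p = 0.000923) and -1.62 (SE 0.20, adjusted p = 0.00217). Dock4 had -2.005 and -1.65, and Agap1, which activates the GTPase of Arf proteins, -2.21 and -1.88, each called at both doses. Rabgap1l and Elmo1 were not called at either dose.

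Genes of vesicle traffic, autophagy and protein turnover had 9 of 12 listed members lower at each dose, with medians of -1.38 and -1.38. Exoc4 and Exoc6b encode subunits of the exocyst, which tethers secretory vesicles to the plasma membrane. Exoc6b (chr6:84618487-85069513, minus strand) read 9.68, 9.04 and 9.29 CPM with NaCl, 1.88, 2.59 and 1.57 CPM at 25 mg/kg and 0.851, 2.21 and 2.04 CPM at 50 mg/kg. It fell by 2.21 and 2.46 on the log2 scale (edgeR adjusted p = 0.00567 and 0.00403), with no overlap between groups. Exoc4 had -1.18 and -1.28.

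Lrba (chr3:86224680-86782692, plus strand), a BEACH-domain protein of vesicle trafficking, went from 44.2 ± 6.47 CPM with NaCl to 9.66 ± 1.23 and 11.3 ± 4.07 CPM (SD, n = 3 each). Snx29, of the sorting nexin family that binds membranes, had log2 fold changes of -2.35 and -2.86. Its NaCl libraries lay between 3.89 and 6.12 CPM and its retrorsine libraries between 0.486 and 1.60 CPM. Like Maml3 and Esrrg, Snx29 had a mean under 1 CPM in a retrorsine group, so its place in the set rests mainly on its NaCl level. Vps13b, Trappc9, Nbea, Fbxl17 and Syt1 were lower at both doses too. Bcas3 and Erc2 were not called.

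Adhesion, polarity and guidance genes had 7 of 17 listed members lower at each dose, with medians of -1.21 and -0.84. Of all long genes, 49.6% and 51.2% were lower. Pard3 and Magi1, scaffolds of the polarity and tight junction complexes, fell at both doses. Pard3 (chr8:127063893-127612286, plus strand) had 85.5 ± 8.11 CPM with NaCl, 37.0 ± 2.62 at 25 mg/kg and 41.4 ± 9.94 at 50 mg/kg (SD, n = 3 each), or log2 fold changes of -1.21 and -1.05 (edgeR adjusted p = 0.00532 and 0.00886). Tenm3, a teneurin that joins neighbouring cells, read 63.7, 65.0 and 59.9 CPM with NaCl and between 10.1 and 24.1 CPM after retrorsine, with log2 fold changes of -2.45 and -1.92.

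Lpp, a LIM protein of focal adhesions, had -1.32 and -1.24, and its values varied little: 44.1 ± 1.50, 17.7 ± 1.22 and 18.7 ± 2.23 CPM (SD, n = 3 each). Plxna4, a semaphorin coreceptor, had -1.41 and -2.27. Its call at 25 mg/kg was lost in 10 of 21 alternatives, including those without any one library of the NaCl or 25 mg/kg groups (highest adjusted p 0.0944). Robo1, a receptor for Slit guidance cues, had 13.7, 2.48 and 13.9 CPM with NaCl and 0.845 to 2.67 CPM after retrorsine. NaCl replicate 2 lay within the range of the 50 mg/kg libraries. The Robo1 changes of -2.93 and -2.67 were called (edgeR adjusted p = 0.0188 and 0.0239) but lost in 8 and 9 of 21 alternatives, namely without NaCl replicate 1 or 3 at both doses, without any 25 mg/kg library at 25 mg/kg and without 50 mg/kg replicate 2 or 3 at 50 mg/kg, among others (highest adjusted p 0.0837 and 0.138). Reln, Lama2, Cdh13, Robo2, Slit3, Gpc6, Adamtsl1 and Sema6d were among those not called at either dose.

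Cytoskeletal genes had 6 of 11 listed members lower at each dose and medians of -1.01 and -1.17. These values lie close to those of all long genes (49.6% and 51.2% lower, medians of -1.10 and -1.06). Utrn and Dmd encode utrophin and dystrophin, which link actin to the membrane. Utrn had 27.0 ± 1.09, 9.44 ± 3.50 and 8.79 ± 1.65 CPM (SD, n = 3 each) and fell by 1.52 and 1.62 on the log2 scale. Dmd (chrX:82948870-85206141, plus strand) had 18.6 ± 1.86, 9.24 ± 0.791 and 10.6 ± 4.22 CPM (SD, n = 3 each). It was called at 25 mg/kg (log2 fold change -1.01, edgeR adjusted p = 0.0386) and not at 50 mg/kg (-0.81, adjusted p = 0.0739). That call was lost without any single NaCl or 25 mg/kg library (highest adjusted p 0.16 over the alternatives), and at 50 mg/kg Dmd was called by DESeq2 (adjusted p = 0.0406) and without 50 mg/kg replicate 2 (-1.12, edgeR adjusted p = 0.0327).

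Nav2, a microtubule-binding navigator protein, read 196, 104 and 119 CPM with NaCl, 21.3, 21.9 and 14.3 CPM at 25 mg/kg and 14.3, 17.2 and 74.0 CPM at 50 mg/kg. Replicate 3 at 50 mg/kg stood apart but still below NaCl. Nav2 changed by -2.86 (edgeR adjusted p = 0.0139) and -1.99 (adjusted p = 0.0443) on the log2 scale. The call at 25 mg/kg was lost without 25 mg/kg replicate 1 or 3, and that at 50 mg/kg in 12 of 21 alternatives, including each fit without a single library other than 50 mg/kg replicate 3 (highest adjusted p 0.216). Syne1 (nesprin, which ties the nucleus to the cytoskeleton), Ttc28 and Diaph2 were lower at both doses. The Syne1 call at 25 mg/kg (-0.86, edgeR adjusted p = 0.0361) was lost without any single NaCl library or 25 mg/kg replicate 1 or 3 (highest adjusted p 0.2), and that at 50 mg/kg without NaCl replicate 1 and either 50 mg/kg replicate 2 or 3 together (highest adjusted p 0.0716). Dst and Ank2 were not called.

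Metabolic and mitochondrial genes had 2 of 11 listed members lower at 25 mg/kg, 3 of 11 at 50 mg/kg, with medians of -0.59 and -0.54. Dpyd (chr3:118562129-119432924, plus strand), which starts the breakdown of pyrimidine bases in liver, had the highest level per length of the long genes, 37.0 FPKM with NaCl. It read 391, 288 and 296 CPM with NaCl, 195, 221 and 183 CPM at 25 mg/kg and 186, 227 and 179 CPM at 50 mg/kg, with no overlap. Its log2 fold changes were -0.70 (SE 0.17, edgeR adjusted p = 0.026) and -0.72 (SE 0.17, adjusted p = 0.0219). Those calls were lost in 8 and 7 of 21 alternatives, among them the fits without NaCl replicate 1 or 3 at both doses, without 25 mg/kg replicate 1 or 3 at 25 mg/kg and without 50 mg/kg replicate 1 or 3 at 50 mg/kg (highest adjusted p 0.294 and 0.235).

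Gphn, which completes the molybdenum cofactor and anchors inhibitory receptors in neurons, had 45.1 ± 6.29, 21.9 ± 2.32 and 22.6 ± 4.42 CPM (SD, n = 3 each), which is 48.5% and 50.1% of NaCl and was called at both doses. Oxr1, an oxidation resistance gene, fell at 50 mg/kg (-0.98, edgeR adjusted p = 0.0126) and was not called at 25 mg/kg (-0.64, adjusted p = 0.0628), a difference between doses that did not pass the test. The call at 50 mg/kg was lost in 4 of 21 alternatives, among them the fit without NaCl replicate 3 (highest adjusted p 0.0739), and 3 gave a call at 25 mg/kg, namely DESeq2 and the fits without 25 mg/kg replicate 2 or NaCl replicate 2 (lowest adjusted p 0.0329). Cpq, Fars2, Immp2l, Sugct, Macrod2, Slc39a11, Slc9a9 and Slc25a21 were not called at either dose.

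**Figure D3:**
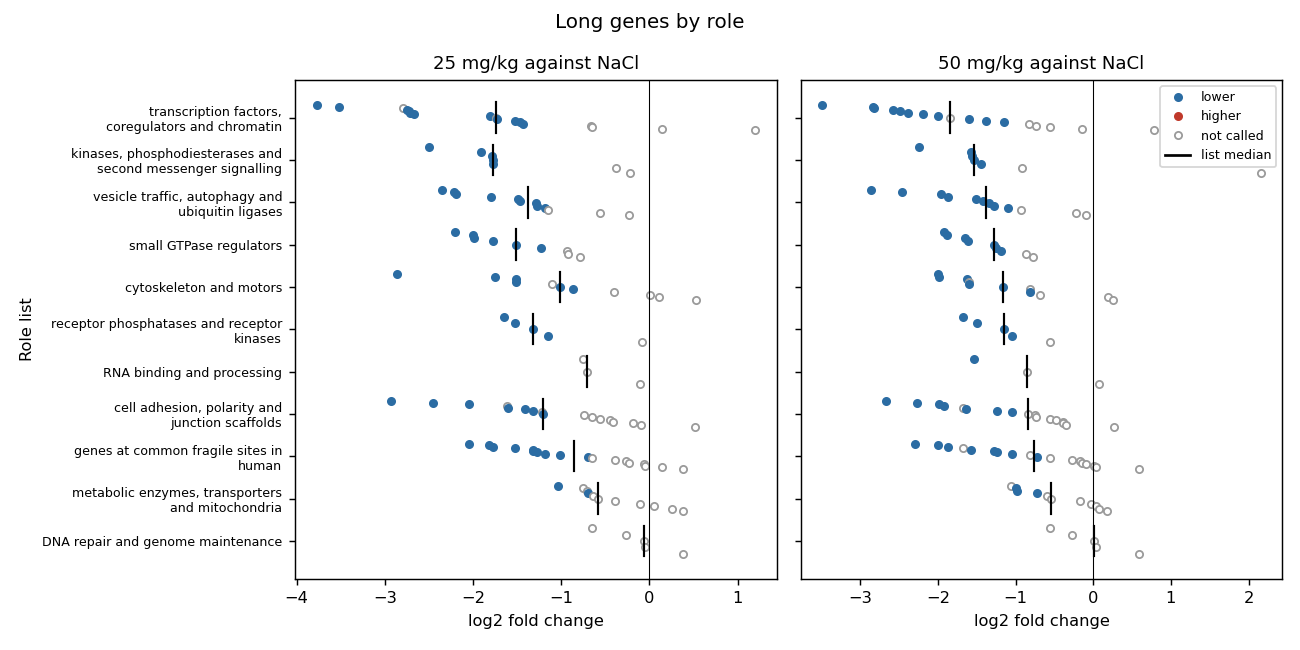
Log2 fold change of long genes against NaCl (x axis) by role list (rows, lists with at least 3 long genes, in order of the 50 mg/kg median), at 25 mg/kg (left) and 50 mg/kg (right). Each point is a gene, blue when called lower and open grey when not called, and the black bar is the list's median, from -1.84 for transcription factors to 0.01 for DNA repair at 50 mg/kg. No gene of these lists was called higher, and a gene may stand in more than 1 list.

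Snd1 and B3galt1 stood outside these lists. Snd1 (chr6:28475139-28935162, plus strand), a nuclease-domain protein that binds RNA and coactivates transcription, read 288, 288 and 282 CPM with NaCl, 138, 138 and 133 CPM at 25 mg/kg and 180, 182 and 237 CPM at 50 mg/kg. The log2 fold change was -1.07 (SE 0.14, edgeR adjusted p = 0.00264) at 25 mg/kg and -0.52 (SE 0.14, adjusted p = 0.0388) at 50 mg/kg. The call at 50 mg/kg was lost in 13 of 21 alternatives (highest adjusted p 0.646), including the fits without any single library other than 25 mg/kg replicate 2 and 50 mg/kg replicate 3.

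B3galt1 (chr2:67565871-68122689, plus strand), a galactosyltransferase of glycan synthesis, read 179, 45.0 and 131 CPM with NaCl, 4.15, 7.64 and 1.62 CPM at 25 mg/kg and 6.20, 2.27 and 64.5 CPM at 50 mg/kg. Replicate 3 at 50 mg/kg lay inside the NaCl range. The gene spans 557 kb, while its principal transcript covers 15.8 kb. The log2 fold change of -4.73 (SE 1.19, edgeR adjusted p = 0.029) at 25 mg/kg was called but lost in 7 of 21 alternatives, including the fits without each 25 mg/kg library and without NaCl replicate 1 or 3 (highest adjusted p 0.11). The -2.28 at 50 mg/kg was not called (adjusted p = 0.171), but it was by limma-voom (-3.41, adjusted p = 0.0404), without 50 mg/kg replicate 3 (-4.80, edgeR adjusted p = 0.00777) and without that library and NaCl replicate 1 together (-4.37, adjusted p = 0.0153). Over the 21 alternatives it ranged from -4.80 to -1.32.

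The list of RNA-binding genes held 3 long genes, of which 0 were called at 25 mg/kg and 1 at 50 mg/kg. Celf2, a splicing regulator, fell at 50 mg/kg (-1.54, edgeR adjusted p = 0.0338) and not at 25 mg/kg (-0.75, adjusted p = 0.246), and that call was lost in 10 of 21 alternatives (highest adjusted p 0.15), among them the fits without any single NaCl library, 25 mg/kg replicate 3, or 50 mg/kg replicate 2 or 3. Rbms3 and Fars2, the others of that list, were not called. Of 5 ion channel and calcium sensor genes, grouped after their values were seen, 1 was lower at each dose, the potassium channel gene Kcnn2.

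Genes that escaped were taken as those called in neither comparison with log2 fold changes within 0.5 of 0 in both, a choice made on the readout and so described without a test. They numbered 13. In order of mean CPM they included Rora, Fars2, Cpq, Sugct, Immp2l, Wwox, Caln1, Ank2, Macrod2, Astn2, Fhit and Adamtsl1.

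Fars2 (chr13:36117412-36726280, plus strand), the mitochondrial phenylalanyl-tRNA synthetase, read 31.7, 29.6 and 29.4 CPM with NaCl, 29.3, 26.7 and 28.2 CPM at 25 mg/kg and 29.5, 34.5 and 31.8 CPM at 50 mg/kg. The log2 fold changes were -0.11 (SE 0.13) and 0.08 (SE 0.13). About 10.7% of its exonic bases overlap another gene's exons, whose reads may be counted in part with it. Cpq (chr15:33083129-33594552, plus strand), a secreted plasma glutamate carboxypeptidase, read 33.0, 27.6 and 28.3 CPM, 29.3, 33.8 and 29.4 CPM, and 26.4, 32.9 and 28.1 CPM in the NaCl, 25 and 50 mg/kg groups. Its groups overlapped fully, with log2 fold changes of 0.06 and -0.02 (SE 0.15 each).

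Wwox (chr8:114439655-115352708, plus strand), an oxidoreductase and tumour suppressor at a fragile site, read 6.79, 7.53 and 6.08 CPM with NaCl, 6.49, 6.18 and 7.09 CPM at 25 mg/kg and 6.08, 7.99 and 6.41 CPM at 50 mg/kg. Its log2 fold changes were -0.04 and 0.01 (SE 0.21 each), although the gene spans 913 kb. Sugct, a mitochondrial CoA-transferase of 838 kb, had 12.5 ± 2.04, 14.99 ± 3.52 and 14.2 ± 3.61 CPM (SD, n = 3 each). Immp2l, a mitochondrial inner membrane peptidase of 932 kb, had 8.37 ± 1.12, 6.36 ± 1.12 and 7.45 ± 2.76 CPM (SD, n = 3 each).

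Rora (chr9:68653786-69388246, plus strand), a nuclear receptor of the liver clock and lipid metabolism, read 35.5, 27.7 and 33.0 CPM with NaCl, 33.4, 44.8 and 27.7 CPM at 25 mg/kg and 35.0, 22.5 and 29.4 CPM at 50 mg/kg, with log2 fold changes of 0.14 and -0.14 (SE 0.22 each). The span of Rora is 734 kb, while its principal transcript covers 90.1 kb. Caln1, Ank2, Macrod2 and Astn2 had mean levels of 1.67 to 5.81 CPM with NaCl, so their intervals are wide: the SE of the log2 fold change was 0.34 to 0.42. Missing the threshold does not show that these genes did not change. CPM also measure them only relative to the other genes of each library.

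At the median, the 13 genes were longer in span and shorter in message than the genes that fell. Their median span was 913 kb, against 523 kb for the 63 genes lower at 50 mg/kg. Their principal mRNA had a median of 2.59 kb in 10 exons, against 6.96 kb in 22 exons. All 123 long genes had medians of 557 kb in span and 5.99 kb of principal mRNA in 20 exons. Under 3000 bases were 7 of the 13, 5 of the 63 and 21 of all 123. Ank2 (14.3 kb), Caln1 (9.33 kb) and Adamtsl1 (7.84 kb), of the 13, had a longer principal mRNA than the 6.96 kb median. Only 3 of the 13 (Rora, Caln1 and Adamtsl1) had a principal transcript of at most 400 kb, against 10 of the 63 and 22 of all 123. These figures describe sets chosen by their response. Calls also went with NaCl level, and gene structure and read level were not separated here.

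**Figure D4:**
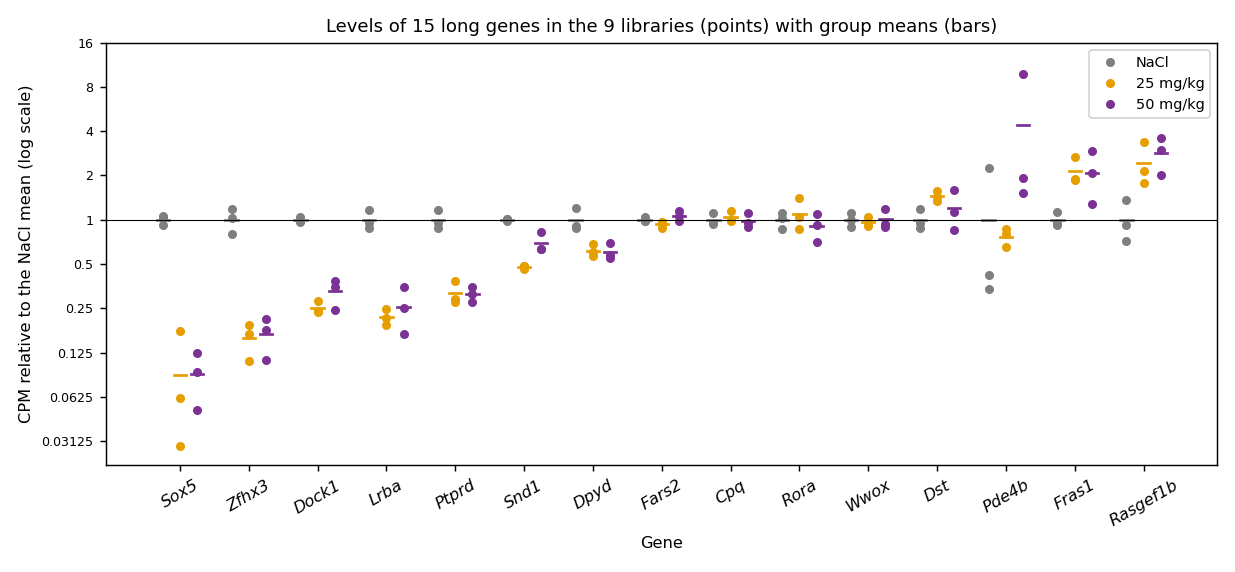
Level of 15 long genes in each of the 9 libraries relative to the gene's NaCl mean (y axis, log scale), for NaCl (grey), 25 mg/kg (orange) and 50 mg/kg (purple), with bars at group means. Sox5 to Dpyd lie below NaCl in every retrorsine library, Fars2 to Wwox stay around the NaCl mean, Dst and Pde4b were not called, and Fras1 and Rasgef1b lie above every NaCl library.

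Genes that lie at common fragile sites in human had 10 of 18 members lower at 25 mg/kg and 8 of 18 at 50 mg/kg, with medians of -0.86 and -0.77 and none higher. These counts are near the share of all long genes called lower, 49.6% and 51.2%. Nbea, Pde4d, Dpyd, Exoc4, Ptprg, Foxp1 and Lpp were among those lower at both doses, and Dmd and Pard3b only reached the threshold at 25 mg/kg. Fhit, Wwox, Immp2l, Macrod2, Rora, Smyd3 and Rad51b were among those not called. Fhit, a diadenosine triphosphate hydrolase whose gene spans 1612 kb, had 1.79 ± 1.19, 1.47 ± 0.396 and 1.47 ± 0.507 CPM (SD, n = 3 each). Of the 5 long genes listed for DNA repair and genome maintenance, none was called at either dose. These 5 (Fhit, Macrod2, Wwox, Rad51b and Smyd3) are fragile-site genes counted above. Fhit and Macrod2 had mean levels of 1.58 and 2.08 CPM. Of long genes under 5 CPM with NaCl, 15.79% and 21.05% were called lower. Rad51b, which acts in homologous recombination, had 7.22 ± 3.58, 6.94 ± 1.75 and 10.9 ± 6.58 CPM (SD, n = 3 each).

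Only Fras1 and Rasgef1b were called higher, at both doses. Rasgef1b (chr5:99217426-99729065, minus strand), an exchange factor for Rap-type GTPases that is induced in stimulated macrophages, read 18.9, 10.004 and 12.9 CPM with NaCl, 24.7, 29.8 and 46.7 CPM at 25 mg/kg and 50.1, 41.3 and 28.1 CPM at 50 mg/kg. Every retrorsine library was above every NaCl library. The log2 fold changes were 1.28 (SE 0.32, edgeR adjusted p = 0.0284) and 1.52 (SE 0.32, adjusted p = 0.0143). The call was lost without NaCl replicate 2 or NaCl replicate 3 at both doses and without 25 mg/kg replicate 3 at 25 mg/kg (highest adjusted p 0.112 and 0.0622). Its RefSeq gene spans 35.5 kb, and its principal transcript as well, so that its place among long genes rests on the longer annotated forms.

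Fras1 (chr5:96373955-96784728, plus strand), an extracellular matrix protein of basement membranes, read 6.79, 7.02 and 8.43 CPM with NaCl, 13.8, 14.0 and 19.7 CPM at 25 mg/kg and 21.6, 15.4 and 9.54 CPM at 50 mg/kg. Here too the groups did not overlap. Fras1 rose by 1.09 (SE 0.29, edgeR adjusted p = 0.0359) and 1.065 (SE 0.29, adjusted p = 0.0367) on the log2 scale. The call was lost in 10 and 12 of 21 alternatives, including the fits without any single NaCl library at 25 mg/kg or any 25 mg/kg library, and at 50 mg/kg without each NaCl library, 25 mg/kg replicate 1, or 50 mg/kg replicate 1 or 2 (highest adjusted p 0.14 and 0.15).

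Dst, the cytolinker dystonin, was among the most abundant long genes by reads and read 188, 139 and 152 CPM with NaCl, 249.5, 215 and 229 CPM at 25 mg/kg and 256, 136 and 182 CPM at 50 mg/kg. The 25 mg/kg libraries lay above NaCl and the 50 mg/kg libraries overlapped it. The log2 fold changes of 0.53 and 0.26 (SE 0.22 each) were not called (edgeR adjusted p = 0.149 and 0.465).

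Promoter sequence was available from RefSeq (GRCm38.p6) for 96 of the 123 long genes. The 250 bases upstream of the start are shown for a gene that fell (Ptprk, chr10:28074570-28074819, plus strand), one that was not called (Immp2l, chr12:41023840-41024089, plus strand) and one that rose (Rasgef1b, chr5:99252928-99253177, minus strand), chosen after their values were seen among genes with a single RefSeq start. Capitals mark the GC box GGGCGG, the CCAAT box CCAAT and the TATA box TATAAA on either strand.
Ptprk: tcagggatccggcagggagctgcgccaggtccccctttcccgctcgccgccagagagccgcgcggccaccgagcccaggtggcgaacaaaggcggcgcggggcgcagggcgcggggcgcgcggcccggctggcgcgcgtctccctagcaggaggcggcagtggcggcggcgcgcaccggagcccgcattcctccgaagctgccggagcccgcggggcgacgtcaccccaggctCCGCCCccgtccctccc
Immp2l: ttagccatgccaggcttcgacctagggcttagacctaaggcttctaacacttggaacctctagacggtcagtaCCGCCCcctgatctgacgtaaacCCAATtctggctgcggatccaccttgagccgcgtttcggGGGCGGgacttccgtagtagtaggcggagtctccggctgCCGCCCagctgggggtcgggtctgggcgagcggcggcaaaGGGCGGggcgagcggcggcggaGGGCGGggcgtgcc
Rasgef1b: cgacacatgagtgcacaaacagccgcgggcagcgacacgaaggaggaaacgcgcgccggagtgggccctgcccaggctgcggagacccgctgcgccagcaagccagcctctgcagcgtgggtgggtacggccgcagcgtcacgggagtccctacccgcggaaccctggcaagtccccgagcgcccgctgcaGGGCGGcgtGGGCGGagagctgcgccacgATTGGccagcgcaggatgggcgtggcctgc
All 3 windows were rich in G and C (79.2%, 66.0% and 72.4%), with 38, 24 and 29 CpG dinucleotides, and none held the TATA letters. The median was 8.5 CpG over windows of long genes and 6.0 over all windows, so these 3 do not stand for the typical window. The GC box letters occurred 1, 5 and 2 times. The Rasgef1b start lies 476 kb into the annotated gene, at the start of its short form.

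Across all 32851 RefSeq windows, 32.7% held GGGCGG, 33.8% CCAAT and 12.4% TATAAA on either strand. Among the 156 windows of long genes these shares were 41.7%, 32.1% and 9.62%. Windows of genes lower at 50 mg/kg held them in 47.4%, 28.9% and 7.89% of 76 cases, and windows of genes not called in 35.4%, 34.2% and 11.4% of 79 cases. The AP-1 letters TGANTCA stood in 6.75% of all windows and 4.49% of those of long genes. Windows of the same gene overlap in part, and a match is letters in a window and not a site.

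The 2 doses were close to each other. None of the 123 long genes was called between 50 and 25 mg/kg by edgeR (0.0% of all genes tested were called lower and 0.00796% higher), and 5 had an unadjusted p under 0.05. Limma-voom called 0 and DESeq2 called 1, Etl4, at a log2 fold change of -1.49 (adjusted p = 0.0263). The median difference was 0.03, and 100 of the 123 genes differed by less than 0.5 on the log2 scale. The 5 genes were Etl4 (-1.50), Snd1 (0.55), Pde4b (2.53), Plxna4 (-0.86) and B3galt1 (2.45), named here after their values were seen. A p above the threshold does not show that the doses act alike.

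Genes of the transcription elongation machinery, a list that held no long gene, were mostly not called. Of 48 tested, 1 was lower and 4 higher at 25 mg/kg, and 1 lower and 5 higher at 50 mg/kg. Of all genes tested, 7.56% were called lower and 5.9% higher at 25 mg/kg, and 8.01% and 7.09% at 50 mg/kg. The genes named next have the lowest edgeR p of the list at 25 mg/kg and do not stand for the rest. Polr2a, the largest subunit of RNA polymerase II, read 75.2, 76.0 and 78.2 CPM with NaCl, 345, 216 and 456 CPM at 25 mg/kg and 459, 534 and 286 CPM at 50 mg/kg. Every retrorsine library was above every NaCl library, with log2 fold changes of 2.15 (SE 0.30, edgeR adjusted p = 0.00278) and 2.48 (SE 0.30, adjusted p = 0.00207). Hexim1, an inhibitor of the elongation kinase P-TEFb, rose by 1.93 and 2.24 on the log2 scale. Its 50 mg/kg libraries were uneven (89.7, 251 and 51.5 CPM), against 25.55 to 30.92 CPM with NaCl. Ccnt2, a cyclin of P-TEFb, rose by 0.86 at 25 mg/kg.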

How the data were processed

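The deposited table holds, per the file headers, a whole-number read count and an FPKM value for each gene in each of 9 liver libraries, made by the authors and not normalized in the case of the counts. The submitters' processing notes name HISAT2 and the mouse build GRCm38. No source used here names the counting tool, annotation release or strand setting, so where a gene overlaps another or an antisense transcript, the source of its reads is uncertain. Spans are end minus start plus 1 as the table gives them. All 123 gene IDs were found in GENCODE M21, 121 with the same start and end, and the exceptions are Cacna1c and Rbms3.

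Counts were fitted in R 4.3.3 with edgeR 4.0.16: filterByExpr (12557 genes kept), TMM scaling, 1 mean per group over all 9 libraries, quasi-likelihood F test, Benjamini-Hochberg adjustment per comparison, threshold 0.05. Each SE was derived from the log2 fold change and its F value. For printed levels, CPM used TMM-scaled library sizes, while the level limit used column totals. FPKM was used to compare levels between genes and was not tested. The procedure was also run on simulated counts with changed genes drawn at random and balanced in direction, unlike these data. That run checks the code and supports no result here. Replicate libraries differed by more than counting error (chi-square per gene of 43.2 to 109.8 on average), so none was taken as the same library deposited again, which does not tell whether they came from separate animals. Intervals and tests cover these libraries only, and PCR reads without molecular identifiers are not independent molecules.

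The members, the role lists and the tests were chosen with earlier results of these data known. In genes named for the deepest falls, the lack of overlap is given by the choice. Named genes were, at each dose, the 10 lowest log2 fold changes among genes called lower without overlap and all called higher. They also were the 10 escaping and the 8 most read genes, up to 3 per role list by adjusted p at 50 mg/kg, and the 5 largest spans, 57 in all with the elongation genes apart. Other genes are named to account for a list, and their calls were not followed through the alternatives. Alternatives were other scalings, DESeq2 1.42.0, limma-voom (limma 3.58.1), other filters, a fold limit, span and level limits, leaving out each library, a replicate block, and models of the compared groups alone. Fits without 2 libraries together and without genes whose RefSeq gene or principal transcript spans at most 400 kb were chosen after seeing the data. Replicate numbers did not pair the libraries. Some genes that are counted in the lists are not reported here by name.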

Additional observations from a re-analysis of the deposited data

How the results depend on the processing

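The fall of the long genes kept its direction in every alternative run. Leaving out single libraries gave 40 to 62 genes lower at 25 mg/kg, 42 to 62 at 50 mg/kg, 0 to 2 higher at either dose, and medians of -1.15 to -1.03 and -1.16 to -1.06. Spans over 300 kb gave 112 and 116 lower of 226 genes, with 4 higher at 50 mg/kg, and spans over 500 kb gave 36 and 35 of 80, with 1 higher at each dose and a median of -0.93 at 50 mg/kg, fewer or more genes being tested. With a fold limit of 0.5 on the log2 scale, 41 were lower and 1 higher at 50 mg/kg and 0 higher at 25 mg/kg. Library totals gave 1 higher at each dose and a median of -1.15 at 50 mg/kg, and moved the share of higher among all called genes there from 46.9% to 35.5%, while the median of all genes shifted by -0.08. Limma-voom gave 1 higher at 50 mg/kg and a median of -1.13, and the fit of only those groups gave 1 higher. Without NaCl replicate 1 and 50 mg/kg replicate 2 together, 34 were lower at 50 mg/kg and 1 higher at 25 mg/kg. Without genes whose RefSeq gene, or whose principal transcript, spans at most 400 kb, 1 was higher at each dose. DESeq2 called 1 gene lower between the doses. Where no construction explains a move, the cause was not tested.

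Same-numbered libraries did not vary together (correlations of -0.23 to 0.14 between groups), so the numbers do not pair them. The fit with a replicate block gave 50 lower and 0 higher at 25 mg/kg and 53 lower and 1 higher at 50 mg/kg, and 0 between the doses.

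Over 171 results of named genes in 21 alternatives, 3413 values kept their side of the threshold, of which 3278 kept their sign and 135, not called in either fit, changed it. Another 166 lost a call and 11 gained one, and 1 gained a call with the opposite sign: Pde4b at 25 mg/kg without NaCl replicate 1 and 50 mg/kg replicate 3 together (1.02). Genes of a few CPM rest on few reads: 6 and 8 of the 38 genes under 5 CPM in NaCl were called lower. Their median changes were smaller too (-0.75 and -0.86), which is partly given by grouping on the NaCl level, the reference of each fold change. What depth alone does to these counts was not tested.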

Other observations

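Genes of 200 to 400 kb, named here after their values were seen, held exceptions as well. Frmd4b, a scaffold of epithelial junctions with a span of 330.7 kb, had 69.2 ± 21.6 CPM with NaCl, 227 ± 12.9 at 25 mg/kg and 210 ± 43.6 at 50 mg/kg (SD, n = 3 each), and rose by 1.71 and 1.60 on the log2 scale (edgeR adjusted p = 0.00285 and 0.00403). Several metabolic genes of this length were not called at either dose: Adk (adenosine kinase) had log2 fold changes of -0.41 and -0.33, Suclg2 (a citric acid cycle enzyme) -0.21 and -0.21, Pcca (propionyl-CoA carboxylase) -0.29 and -0.32, and Msra (methionine sulfoxide reductase) -0.03 and -0.02. Acaca, which makes malonyl-CoA for fatty acid synthesis, fell by 2.18 at 25 mg/kg and by 0.997 at 50 mg/kg. The inositol trisphosphate receptors Itpr1 and Itpr2 fell by 1.75 and 1.67 at 25 mg/kg and by 1.52 and 1.24 at 50 mg/kg.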
